A study of Mus musculus with 48 samples.

Results

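Survivin, encoded by Birc5, and 9 further regulators of mitosis were followed in mouse embryonic stem cells after transcription was blocked. The 10 genes were listed by name and matched from gene identifier to mouse symbol, by a rule that names no measured value. Earlier results of these data, among them the short life of Birc5, were known when the genes were chosen. Of the 10 genes, 9 were among the 23862 genes listed in at least 1 library. The 10 genes comprise the chromosomal passenger complex (Birc5, Aurkb, Incenp and Cdca8), the mitotic kinases Aurka and Plk1 with the checkpoint kinase Bub1, and the mitotic cyclins Ccnb1 and Ccna2 with Cdc20. The cells were E14TG2a, an embryonic stem cell line, grown in 2i + LIF medium, and every library analysed here came from cells exposed to 1 µM flavopiridol, which stops transcription by inhibiting the CDK9 kinase of elongating polymerase. PolyA RNA was sequenced at 30, 60, 120 and 240 min from a whole-cell extract (total) and from its cytosol, membrane and nucleus fractions, separated with digitonin and then NP-40. Each of the 16 groups held 3 replicates, which the study's methods describe as independently passaged, so that the data hold 48 libraries. The libraries at 0 min, which are the untreated state, were not analysed here as such, because each deposited value already divides the level of a gene by that of the fraction's own 0 min samples. A value of 1 therefore means no change, and levels cannot be compared between fractions from these values. In bulk fractions fewer cells of a type and less RNA per cell cannot be told apart.

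The chromosomal passenger complex corrects the attachment of chromosomes to the spindle and guides cytokinesis. Aurkb is its kinase, Incenp the scaffold that binds and activates the kinase, and survivin and borealin (Cdca8) bring the complex to centromeres. Survivin also carries the BIR domain of the inhibitor of apoptosis family. Plk1 and Aurka drive centrosome maturation and spindle assembly, Bub1 marks centromeric histones and takes part in the spindle checkpoint, Ccnb1 and Ccna2 activate cyclin-dependent kinases, and Cdc20 activates the ubiquitin ligase that ends mitosis. Embryonic stem cells divide rapidly and carry out these steps often.

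Sequence elements of the 3′ UTR through which proteins are known to speed mRNA decay were located first, because the values below describe the loss of transcript. In GRCm38 Birc5 (ENSMUSG00000017716) lies at chr11:117849251-117855743 on the plus strand, and its principal transcript of 947 bases has 4 exons and a 3′ UTR of 424 bases. That 3′ UTR held no ATTTA, no TATTTAT (a longer AU-rich form, which contains ATTTA) and no TGTANATA (the motif of Pumilio proteins), searched on the sense strand. Over 21020 protein-coding genes, 62.9% of 3′ UTRs held ATTTA, 26.2% held TATTTAT and 22.2% held TGTANATA. The median length of these 3′ UTRs was 850 bases, longer than that of Birc5, and length was not matched. Cdca8, Plk1 and Cdc20 likewise held none of these elements. Among the other members Incenp, Ccna2 and Bub1 held a long AU-rich form or a Pumilio motif, as did Ccnb1, and Aurkb and Aurka held 1 ATTTA each. In GRCm38 the partner genes lie at chr11:69045647-69051664 (Aurkb, plus strand), chr19:9872296-9899551 (Incenp, minus strand) and chr4:124918465-124939311 (Cdca8, minus strand). The kinase genes lie at chr7:122159439-122169873 (Plk1, plus strand), chr2:127801122-127831865 (Bub1, minus strand) and chr2:172356190-172370535 (Aurka, minus strand). Ccna2 lies at chr3:36564865-36572150, Ccnb1 at chr13:100778650-100786570 and Cdc20 at chr4:118432901-118437352, all on the minus strand. The stretches of 30 bases below show these elements in the 4 members that had one and were listed in more than 12 libraries, 5′ to 3′ with the element in capitals, all in the 3′ UTR of the GENCODE M21 transcript. The Aurkb stretch is chr11:69051541-69051570 on the plus strand, the Incenp stretch chr19:9872410-9872439, the Bub1 stretch chr2:127801147-127801176, and the Ccna2 stretches chr3:36565685-36565714 and chr3:36564876-36564905, each of the last 4 on the minus strand.
Aurkb, ATTTA: atattataagccATTTAatacaatttttct
Incenp, TGTANATA: aggcagtactcTGTAAATAaatagattgtt
Bub1, TATTTAT: ttcatacttacTATTTATgtatgtttaaaa
Ccna2, TATTTAT: tggagacatttTATTTATcaactttaacaa
Ccna2, TGTANATA: ttatatatgtgTGTAAATAaagcatgcaaa
A match is a description of these letters and not a site in use. Bub1 held 2 ATTTA elements in a 3′ UTR of 121 bases. Whether any of these elements bears on the decay of the members was not tested.

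The annotation holds a second protein-coding transcript of Birc5, 3334 bases long, of which 2444 bases (73.3%) lie inside introns of the principal transcript. Reads from unspliced Birc5 RNA can therefore fall on annotated exons. Of the 50-base windows of the principal transcript, 21 of 898 also occurred in transcripts of another gene. No such window was found for Aurkb, Incenp, Cdca8, Aurka or Bub1, while 1028 of 2440 windows of Ccnb1 were shared, most of them with Ccnb1-ps. Among the well covered members 464 of 2916 windows of Ccna2 (15.9%, with Exosc9), 202 of 1744 of Cdc20 (11.6%) and 234 of 2150 of Plk1 (10.9%) were shared, so their values are less certain in that respect. Ccna2 exons overlap those of Exosc9 on the opposite strand over 510 bases, and shorter overlaps of 232, 156 and 53 bases concern Cdca8, Plk1 and Cdc20. Whether the counting used strand is not given in the sources used here, so those values may hold reads of the partner gene.

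The depth behind each value was read from the ratios. Within a fraction, the ratios of a gene were those of small whole numbers, and the smallest set of whole numbers in the same proportions (within 0.001) was found for 99.96% to 99.99% of genes. These numbers, called recovered reads here, summed to 4527618 to 6866955 per library and are the least that the files allow. Incenp had 462 to 3783 recovered reads per library, Bub1 1077 to 2520, Cdc20 505 to 3972, Ccna2 603 to 3060, Plk1 212 to 2777 and Cdca8 167 to 1202.

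The remaining members were shallow. Birc5 had 1 to 502 recovered reads and Aurkb 1 to 17, in 43 of 48 libraries. Ccnb1 was listed in 12 libraries with 1 or 2 reads, in total RNA and the nucleus only, and Aurka in 0 of 48. A gene without a value is not listed in these files, so the absence of Aurka gives no level. Gapdh, a highly expressed housekeeping gene named after its values were seen, had 1 to 11 reads in 31 libraries and 82.5% of its windows shared with other transcripts, against 2681 to 14677 reads for Actb. Aurkb and Aurka shared no windows, and why their read numbers were low was not tested. Intervals from read numbers below are 95% Poisson intervals of the library's own reads. They cover counting error only and leave out the error of the 0 min level.

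**Figure D1:**
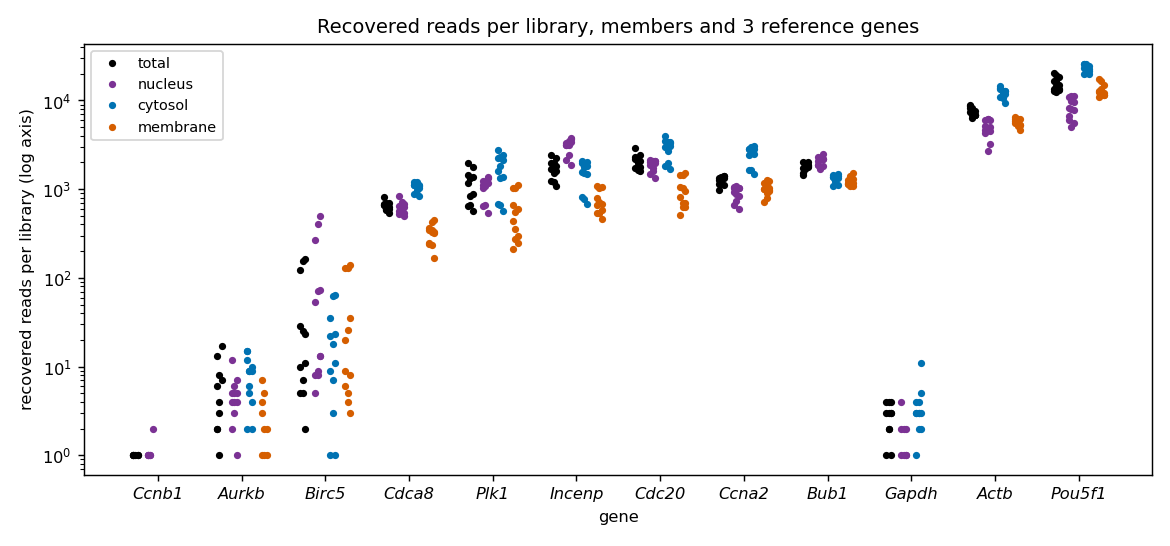
Recovered reads per library (log axis) for 9 members and 3 reference genes, 1 point per library, coloured by fraction. Birc5 spans 1 to 502 reads, Aurkb and Ccnb1 stay at or below 17, and the 6 other members lie between 167 and 3972.

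The labelled cell type held in its markers: 8 of 10 stem cell markers were listed in all 48 libraries, with summed reads of 32896 to 78251. Of 7 fibroblast markers 0 were listed in all 48 and 3 in none, with summed reads of at most 56. Of 8 markers of differentiated lineages 0 were listed in all 48, with sums of at most 304 reads. The stem cell markers not listed in all 48 were Esrrb (37 libraries, 1 to 27 reads) and Zfp42 (47 libraries, 2 to 145 reads). Some markers of the other lists came close to all 48: Sox1 in 47 libraries with 1 to 277 reads, T in 46 with at most 21 and Gata6 in 42 with at most 15. Col1a1 was in 44 with at most 9 reads and Thy1 in 43 with at most 51. One library stood apart: at 30 min the nucleus of replicate 1 had a median log2 ratio of -0.76, against -0.08 and -0.28 in replicates 2 and 3, and results that rest on it are given with and without it.

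Birc5 lost most of its transcript within the first hour in every fraction. Here and below its levels may include reads of unspliced RNA, a part that was not tested. In total RNA the level of Birc5 relative to 0 min was 0.365, 0.539 and 0.505 at 30 min in replicates 1, 2 and 3, and 0.0896, 0.0735 and 0.0744 at 60 min. By 120 min it was 0.0231, 0.0198 and 0.0307, and by 240 min 0.0103, 0.0108 and 0.00448. Each time point lay below the one before it with no overlap between replicates. The last values rest on 5, 5 and 2 reads, and the interval of the third was 0.000543 to 0.0162.

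The nucleus lost Birc5 further. Its levels there were 0.157, 0.372 and 0.376 at 30 min, 0.0339, 0.0394 and 0.0463 at 60 min, and 0.00423, 0.00483 and 0.00634 at 120 min. The values of 0.00219, 0.00314 and 0.00499 at 240 min overlapped those at 120 min, at 5 to 13 reads in both. The low value at 30 min came from the nuclear library of replicate 1 that stood apart, and replicate 1 was also the lowest of its group at 30 min in total RNA and in the cytosol.

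The cytosol kept more Birc5 at 60 min than the nucleus did, relative to each fraction's own start. Its levels were 0.254, 0.475 and 0.522 at 30 min, 0.151, 0.126 and 0.165 at 60 min, and 0.0572, 0.0446 and 0.0688 at 120 min. At 240 min they were 0.00571, 0.0163 and 0.0058, from 1, 3 and 1 reads, so that the first of these has an interval of 0.000145 to 0.0318. The groups did not overlap between any neighbouring times. In the membrane fraction, which holds endoplasmic reticulum and mitochondria, the levels were 0.599, 0.585 and 0.619 at 30 min and 0.0834, 0.103 and 0.139 at 60 min. They reached 0.0348, 0.0183 and 0.0339 at 120 min and 0.0175, 0.0118 and 0.00988 at 240 min, again with no overlap between neighbouring times.

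**Figure D2:**
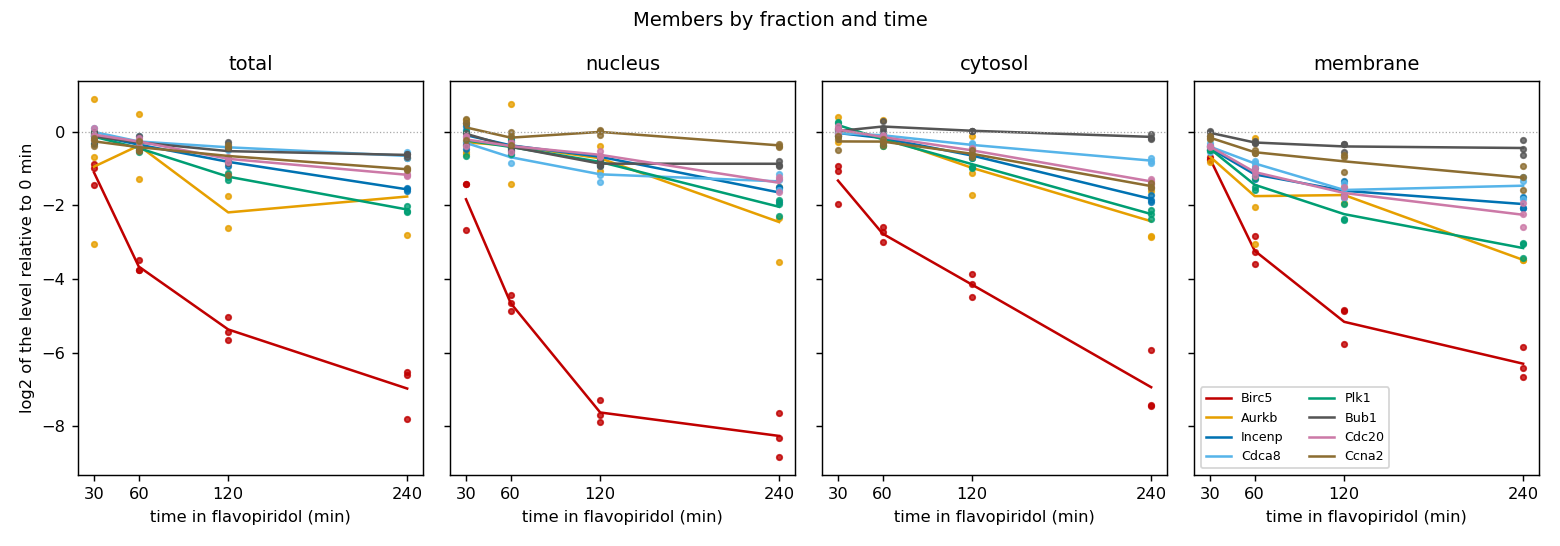
Log2 of the level relative to 0 min against time in flavopiridol (min) for 8 members in the 4 fractions, with points for replicates and lines through their means. The Birc5 mean lies below those of the other members from 60 min on in each fraction, and the Aurkb points scatter widely.

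A single exponential with a fitted starting level gave Birc5 a half-life in total RNA of 11.8 ± 2.59 min, where the SD is that of fits to each replicate alone (n = 3). The nuclear half-life was 10.3 ± 2.37 min, that of the membrane fraction 12.3 ± 1.79 min, and the cytosolic one 22.3 ± 13.2 min. Among all genes fitted, counted from the shortest, Birc5 was at place 7 of 12762 for total RNA, 18 of 13343 for the nucleus, 6 of 12408 for the membrane fraction and 65 of 11979 for the cytosol, beside medians of 244, 176, 219 and 213 min. Birc5 was known to be short-lived in these data when it was singled out, so the ranks are a description with no test. The values depend on the model: with a starting level fixed at 1 they were 22.9 (total), 16.3 (nucleus), 28.1 (membrane) and 23.2 min (cytosol), and a straight line on the log2 scale gave 40.1, 36.2, 42.3 and 39.2 min. Without the nuclear library that stood apart the nuclear half-life was 9.3 min. The fitted starting level was not held at the measured level of 1. At 30 min the mean level of Birc5 was still 0.470 (total), 0.302 (nucleus) and 0.601 (membrane). A fall from 1 with the fitted-start half-lives of these fractions would leave less. Those half-lives and their ranks therefore describe the fall after 30 min, and their SD does not cover the choice of start.

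The partners in the complex were compared with Birc5 within each library. Incenp in total RNA was at 0.955, 0.915 and 0.928 at 30 min, 0.814, 0.741 and 0.796 at 60 min, 0.525, 0.582 and 0.594 at 120 min, and 0.339, 0.347 and 0.326 at 240 min. Cdca8 was at 1.08, 0.925 and 0.983, then 0.921, 0.786 and 0.79, then 0.703, 0.735 and 0.799, and at 240 min 0.613, 0.68 and 0.607. Incenp thus fell step by step with no overlap, whereas the Cdca8 groups overlapped between 60 and 120 min in total RNA. At 240 min Incenp kept 0.337 ± 0.011 (SD, n = 3) of its 0 min level and Cdca8 0.634 ± 0.0406, beside 0.00853 ± 0.00351 for Birc5.

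At 240 min Incenp was at 0.320 ± 0.0464 (nucleus), 0.282 ± 0.0210 (cytosol) and 0.257 ± 0.0318 (membrane). Cdca8, in the same order, was at 0.395 ± 0.0611, 0.580 ± 0.0244 and 0.367 ± 0.0741, each mean above that of Incenp, with replicates that overlapped in the nucleus and the membrane fraction and not in the cytosol. In the membrane fraction Cdca8 reached its lowest mean at 120 min, with 0.383, 0.34 and 0.284, and was at 0.283, 0.392 and 0.425 at 240 min, so the last groups overlapped.

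Aurkb could not be followed with the same precision. Its levels in the cytosol, where it was listed in all 12 libraries, were 1.31, 0.82 and 0.985 at 30 min from 15, 9 and 10 reads, and 0.138, 0.328 and 0.14 at 240 min from 2, 5 and 2 reads. In total RNA at 30 min the replicates ranged from 0.121 to 1.85, from 1 and 17 reads. Aurkb values thus rest on few reads, and the gene was not listed in replicate 3 at 120 and 240 min in total RNA.

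On the log2 scale and within a library, Birc5 at 60 min lay below the mean of Aurkb, Incenp and Cdca8 with a difference of -3.33 ± 0.22 in total RNA and -4.18 ± 0.54 in nuclear RNA (SD, n = 3). For the cytosol it was -2.63 ± 0.19 and for the membrane fraction -1.98 ± 0.92. With Aurkb left out the differences in the same order were -3.35 ± 0.07, -4.13 ± 0.20, -2.64 ± 0.15 and -2.22 ± 0.48, so that Birc5 had fallen 10.2-fold, 17.5-fold, 6.22-fold and 4.67-fold further than Incenp and Cdca8. In total RNA the gap widened at each later time, to 26.9-fold at 120 min and 58.2-fold at 240 min. In the nucleus it was 104-fold at 120 min and 109-fold at 240 min, where Birc5 rests on 5 to 13 reads. At 30 min it was smallest in the membrane fraction, at -0.31 ± 0.04 or 1.24-fold, and 3.11-fold in the nucleus. Birc5 was below Incenp, Cdca8, Plk1, Bub1, Cdc20 and Ccna2 in 48 of 48 libraries each and below Aurkb in 40 of the 43 libraries that list it. These differences are descriptive, because the pattern of Birc5 was known beforehand.

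**Figure D3:**
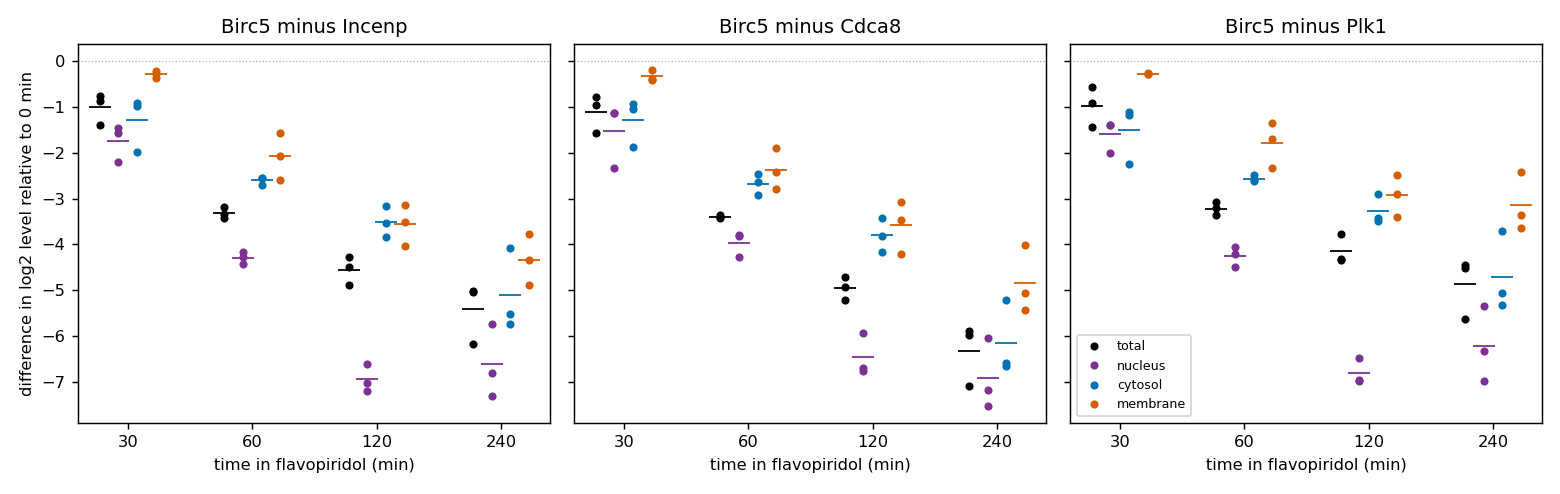
Difference between Birc5 and Incenp, Cdca8 or Plk1 in log2 of the level relative to 0 min, by time (min) and fraction, with points for libraries and dashes for the mean of 3. All points lie below 0, and the nuclear points are the lowest at 60 and 120 min.

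Levels were also set against library size, as RPM, the recovered reads of a gene scaled to an equal total for every library. On this scale Birc5 at 30 min was 9.74-fold higher in the nucleus than in the cytosol, with a log2 difference of 3.28 ± 0.09 (SD, n = 3 replicate numbers), which is above that of 95.7% of 10684 genes. At 60 min the fold was 4.01, at 120 min 1.24, from 7 to 13 reads per library, and at 240 min 5.23, where the cytosol had 1 to 3 reads. Incenp was 2.38-fold and Bub1 2.56-fold higher in the nucleus at 30 min, and Incenp was still 2.64-fold higher at 240 min. Cdca8, Plk1, Cdc20 and Ccna2 were at 0.816, 0.63, 0.709 and 0.381 times their cytosolic level at 30 min. These ratios are relative to the RNA of each library and not amounts per cell, and those of Birc5 may include unspliced RNA.

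To ask which members fell with time, the slope of the log2 level on time was tested with limma over every gene with a value in each of a fraction's 12 libraries, with Benjamini-Hochberg adjustment and a threshold of 0.05. In total RNA 7 of 7 members tested fell, where 56.9% of 12762 genes did. In the nucleus 8 of 8 fell, against 61.9% of all genes. In the cytosol 7 of 8 fell, against 67.1%, and in the membrane fraction 7 of 7, against 62.2%. Genes passed only where they were listed in every library of the fraction, so Aurka and Ccnb1 were tested nowhere and Aurkb in the nucleus and cytosol only.

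The slopes of the members ranged widely. Their SE holds the departure of the levels from a straight line as well as the spread of replicates. Birc5 in total RNA had -1.50 ± 0.20 log2 per h (SE, adjusted p = 3.34e-05 in limma). Its slope was -1.66 ± 0.29 for the nucleus (-1.61 ± 0.32 without the library that stood apart), -1.53 ± 0.12 for the cytosol and -1.42 ± 0.21 for membranes, values that its known instability makes a description. Plk1 came next among the well covered members, with -0.57 ± 0.04, -0.52 ± 0.05, -0.69 ± 0.03 and -0.71 ± 0.08 in the same order, and its half-life was 94.4 ± 11.4 min in total RNA and 47.9 ± 10.5 min in the membrane fraction. Aurkb had -0.64 ± 0.15 in the nucleus and -0.72 ± 0.11 in the cytosol.

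Among the remaining kinases and Cdc20, Plk1 in total RNA was at 0.993, 0.802 and 0.945 at 30 min and at 0.226, 0.246 and 0.22 at 240 min, and in the membrane fraction it went from 0.712, 0.706 and 0.754 to 0.093, 0.121 and 0.124. Cdc20 at 240 min was at 0.436, 0.45 and 0.445 in total RNA and at 0.166, 0.211 and 0.259 in the membrane fraction. Bub1 at 240 min was at 0.659, 0.657 and 0.619 in total RNA and at 0.957, 0.875 and 0.887 in the cytosol. Plk1 was thus lower at 240 than at 30 min in both fractions without overlap, and the cytosolic Bub1 values lay within 0.875 to 0.957 of the 0 min level.

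The median slope of all genes was itself -0.22 log2 per h (total), -0.30 (nucleus), -0.28 (cytosol) and -0.26 (membrane), so changes were also read relative to it by subtracting the median of its genes from each library. Of the genes called in total RNA, 5.61% had a positive slope as deposited and 48.1% after this centring. Birc5, Incenp and Plk1 still fell in each fraction after centring, with Incenp between -0.12 and -0.24 log2 per h and an adjusted p of at most 0.0474 in limma. Cdc20 had slopes of -0.31, -0.33, -0.40 and -0.49 and was below the median gene in each fraction, past the threshold after centring in the cytosol and the membrane fraction only. Cdca8 had -0.17, -0.28, -0.22 and -0.28, but after centring its slope turned positive in total RNA, nucleus and cytosol and passed the threshold in the cytosol, at 0.06 (adjusted p = 0.0112 in limma). Ccna2 had -0.21, -0.11, -0.36 and -0.28, and after centring its slope was 0.02 in total RNA and 0.20 in the nucleus, the latter past the threshold (adjusted p = 0.00656 in limma), while in the cytosol it still fell, at -0.08 (adjusted p = 0.0378 in limma), and in the membrane fraction it had -0.02. Bub1 had slopes of -0.14, -0.21, -0.06 and -0.10, the smallest falls of the members tested in every fraction but the nucleus, where Ccna2 fell less, with an adjusted p of 0.0521 in the cytosol, and after centring it had positive slopes of 0.09, 0.10, 0.22 and 0.16 that passed the threshold in each fraction.

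Some of the smaller slopes changed call with 1 replicate left out. Nuclear Ccna2, with an adjusted p of 0.0483, was no longer called when any 1 of the 3 replicates was left out (adjusted p of 0.100 to 0.222 in limma) and with a replicate block (0.0677), Bub1 not without replicate 2 or 3 in total RNA and not without replicate 1 or 2 in the membrane fraction, and Cdca8 not without replicate 1 in the membrane fraction. Cytosolic Bub1 in turn was called without replicate 1, at -0.09 (adjusted p = 0.0344 in limma).

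With libraries scaled instead to 13 mRNAs encoded by the mitochondrial genome, 1 of 8 members fell in the nucleus, where 21.0% of all genes did, and 4 of 8 in the cytosol, where 27.3% did. The nuclear call that remained was Birc5, at -1.46 ± 0.32 log2 per h (adjusted p = 0.00153 in limma), while Bub1 in the cytosol and Ccna2 in the nucleus had positive slopes of 0.10 and 0.08 that did not pass it.

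**Figure D4:**
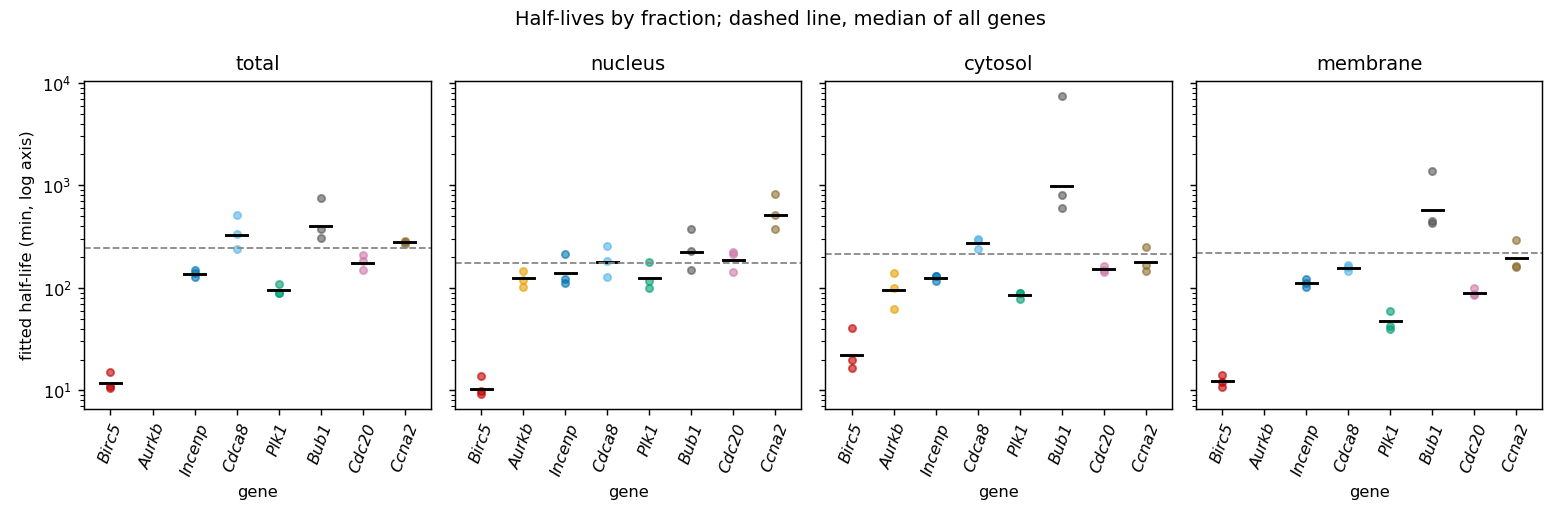
Half-life (min, log axis) of 8 members in the 4 fractions from an exponential with a fitted starting level, with points for single-replicate series, black bars for the fit to all 12 libraries and a dashed line for the median of all genes. Birc5 lies at 10.3 to 22.3 min, below the medians of 176 to 244 min. Its values in total RNA, nucleus and membrane fraction describe the fall after 30 min. Cdca8, Bub1 and Ccna2 lie above the median in total RNA and nucleus.

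Half-lives in total RNA, with a fitted starting level, gave the following order. Birc5 was followed by Plk1 at 94.4 ± 11.4 min, Incenp at 138 ± 11 min, Cdc20 at 176 ± 30.1 min, Ccna2 at 278 ± 8.58 min, Cdca8 at 331 ± 141 min and Bub1 at 402 ± 243 min. The single-replicate values of neighbours did not overlap from Birc5 up to Ccna2, whereas those of Ccna2, Cdca8 and Bub1 overlapped. In the cytosol Bub1 had 7455, 800 and 606 min in the single series, so no useful value could be given there. In the nucleus Ccna2 had the longest half-life of the members, at 514 ± 228 min, and in the membrane fraction Cdc20, at 89.2 ± 7.61 min, was shorter-lived than Incenp, at 112 ± 9.82 min.

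The steps between neighbouring times show when the members fell. From 30 to 60 min 1 of 7 members in total RNA was lower, where 2.32% of all genes were. This was Birc5, with a difference of -2.55 ± 0.34 log2 (adjusted p = 0.0138 in limma). Its short life was known when it was chosen, so the p-values of Birc5 at these steps are descriptive. In the nucleus 1 of 8 was lower (2.18% of all genes), again Birc5, at -2.82 ± 0.42, a call lost without replicate 2 or 3 (adjusted p of 0.489 and 0.289 in limma), where 0 of all genes tested were called lower. With a library left out the Birc5 difference lay between -3.24 and -2.62. Without the library that stood apart 2 of 8 members were lower, as were 25.3% of all genes. In the cytosol 0 of 8 were called lower by limma (1.89% of all genes), and 3 of 8 had an unadjusted p under 0.05, Birc5 among them at -1.44 ± 0.42 with an adjusted p of 0.109 that fell below the threshold at 0.0189 with the variance trend fitted on recovered reads. In the membrane fraction 4 of 7 were lower (12.7% of all genes), namely Birc5 at -2.50 ± 0.30, Incenp at -0.71 ± 0.15, Plk1 at -0.98 ± 0.18 and Cdc20 at -0.69 ± 0.17. When any replicate was left out, 0 of the members tested were called in total RNA or the membrane fraction at this step, and over all genes 0 were called lower in total RNA and between 0 and 4 in the membrane fraction. The Birc5 difference itself then lay between -2.82 and -2.39 in total RNA and between -2.68 and -2.33 in the membrane fraction.

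From 60 to 120 min 4 of 7 members were lower in total RNA (26.5% of all genes): Birc5, Incenp, Plk1 and Cdc20. In the nucleus 1 of 8 was (12.1% of all genes), Birc5, which fell by 2.97 on the log2 scale. In the cytosol 6 of 8 were lower (34.5% of all genes), all but Aurkb and Bub1, and in the membrane fraction 4 of 7 (25.6% of all genes), where Cdca8 passed with -0.72 ± 0.17 and Incenp, with -0.44 ± 0.15 and an adjusted p of 0.0542 in limma, did not. With 1 replicate left out, the counts were 0 or 1 in total RNA, 0 to 2 in the cytosol and 0 to 3 in the membrane fraction, where 132 to 1509, 1302 to 2051 and 497 to 971 of all genes were called lower, against 3381, 4133 and 3174 with every replicate. In the nucleus 0 members and 0 of all genes were called without replicate 2 or without replicate 3, and 1 member and 9.69% of all genes without replicate 1.

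From 120 to 240 min Incenp, Plk1 and Cdc20 fell further in at least 3 fractions. In total RNA 4 of 7 were lower (29.2% of all genes), the same 4 genes as in the step before. In the nucleus 4 of 8 were lower (34.3% of all genes): Aurkb, Incenp, Plk1 and Cdc20, while Birc5 had a difference of -0.64 ± 0.42 with an adjusted p of 0.268 in limma, at 5 to 13 reads per library. In the cytosol 7 of 8 were lower (47.9% of all genes), all but Bub1, and Incenp fell by 1.18 and Plk1 by 1.35 on the log2 scale. In the membrane fraction 3 of 7 were lower (37.6% of all genes): Birc5, Plk1 and Cdc20. Bub1 was called in no fraction at this step, with -0.10 ± 0.16 in total RNA (adjusted p = 0.662 in limma) and -0.0039 ± 0.16 in the nucleus, and membrane Cdca8 had 0.12 ± 0.17. With 1 replicate left out, or in the nucleus also the library that stood apart, the counts were 2 to 5 in total RNA and 0 to 4 in the nucleus. They were 6 or 7 in the cytosol and 1 or 2 in the membrane fraction. The nuclear count of 0 was that without replicate 3, where 10.9% of all genes were lower, and the count of 2 in total RNA also was, beside 11.9% of all genes.

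Whether members fell at a different rate in 2 fractions was tested as the interaction of time with fraction over the genes listed in all 24 libraries. Between nucleus and cytosol 1 of 8 members differed, where 20.6% of 11232 genes did. This was Ccna2, whose slope was 0.25 ± 0.05 log2 per h higher in the nucleus (adjusted p = 0.00281 in limma). Ccna2 in the nucleus was at 1.17, 1.27 and 0.852 at 30 min and at 0.768, 0.796 and 0.752 at 240 min, and in the cytosol it went from 0.71, 0.875 and 0.924 to 0.378, 0.352 and 0.345. At 240 min the 3 nuclear values lay above the 3 cytosolic ones. The call was lost without replicate 3, at 0.21 ± 0.08 and an adjusted p of 0.125, with 30, 60 and 120 min only (0.481) and with scaling to the mitochondrial mRNAs (0.557 in limma). The reads of Ccna2 may include those of Exosc9 on the opposite strand, a part that was not tested.

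For Birc5 the slope differed between nucleus and cytosol by -0.12 log2 per h, with a 95% interval of -0.80 to 0.55, so that a difference in either direction is within the interval. Over 30, 60 and 120 min only the difference was -1.92 ± 0.41 (adjusted p = 0.0100 in limma), a steeper fall in the nucleus. Plk1 and Bub1 had differences of 0.16 ± 0.06 and -0.15 ± 0.06, with unadjusted p under 0.05 but adjusted p of 0.0544 and 0.0788 in limma. Between membrane and cytosol 0 of 7 members differed in limma, where 6.7% of 11086 genes did, and 0 of 7 had an unadjusted p under 0.05. For Birc5 this difference was 0.11, with an interval of -0.41 to 0.64. Both comparisons share the cytosol libraries.

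The genes most like Birc5 were sought among 8545 named genes listed in all 48 libraries, by the root mean square distance of the 16 mean log2 levels. The nearest were Trim11 (0.73 log2 units), Zfp773 (0.76), Fgf4 (0.87), Rbm3 (1.00) and Arl4d (1.07). Trim11 is a ubiquitin ligase of the tripartite motif family, Fgf4 a growth factor of embryonic stem cells and Rbm3 a cold-inducible RNA-binding protein. Of these, Fgf4 had the most reads in total RNA, with 2433 to 3076 at 30 min and 78 to 87 at 240 min, and its half-life was 14.4 min. The other members were far from Birc5, with Plk1 the nearest at a distance of 3.72 and place 1845, Incenp at place 2943 and Bub1 at place 6296.

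The mean profile of Incenp and Cdca8 had close neighbours. Aurkb was left out of this profile because 43 of 48 libraries listed it. The nearest genes were Xab2 (0.11 log2 units), Ddx56 (0.11), Kif23 (0.12), Gtf2f1 (0.13) and Kif22 (0.14). Kif23 and Kif22 are mitotic kinesins, of which Kif23 works at the spindle midzone in cytokinesis. Cdc20 was at place 12 at a distance of 0.17, and Birc5 at place 8544, the last.

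The rest of the mitotic machinery was described from lists of genes. The inhibitor of apoptosis family shares the BIR domain with survivin. In total RNA 2 of its 6 tested members fell, Birc5 and Birc2, the latter at -0.39 ± 0.10 log2 per h and from 6 to 20 reads, while Birc7 had -0.01 ± 0.05. Birc2 was no longer called after centring, at -0.16 (adjusted p = 0.115 in limma). The chromatin partners of the passenger complex include the kinase Haspin, which marks histone H3 for survivin, and the cohesin protector Sgo1. In this list 6 of 10 fell, with a median slope of -0.28 beside -0.22 over all genes, and Haspin, at -1.26 ± 0.10, and Sgo1, at -1.11 ± 0.06, fell fastest. Haspin had 33 to 573 reads and Sgo1 108 to 1287, and their half-lives were 33.4 and 43.6 min. Rcc2 was at 0.01 ± 0.06.

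At the kinetochore and centromere 21 of 29 genes fell and 0 rose in total RNA, with a median slope of -0.29. Mis12, of the outer kinetochore, had -1.55 ± 0.11 and Cenpl -1.06 ± 0.15, whereas Cenpm had 0.11 ± 0.09. Of the spindle assembly checkpoint 8 of 11 fell and 1 rose, with a median of -0.26. Mad2l1bp, which disassembles the checkpoint complex, had the steepest slope of the list at -1.91 ± 0.15, from 1 to 154 reads, and Spdl1 had -0.82 ± 0.05. The gene that rose was Kntc1, part of the complex that brings dynein to kinetochores, at 0.10 ± 0.04 (adjusted p = 0.0432 in limma, where 3.39% of all genes rose), but its slope was -0.02 with scaling to the mitochondrial mRNAs.

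Of the anaphase-promoting complex and its regulators 12 of 17 fell, with a median slope of -0.23, close to that of all genes. The inhibitor Fbxo5 (Emi1) had -1.41 ± 0.15 and the activator Fzr1, the counterpart of Cdc20, -0.62 ± 0.03, while Anapc5 had 0.23 ± 0.14 from 3 to 14 reads. Of the genes of mitotic entry and exit 14 of 16 fell, with a median of -0.35. Wee1, which holds back the mitotic kinase, had -1.24 ± 0.08 and Cdc25a, which releases it, -0.73 ± 0.05, whereas the cyclin Ccnb2 had -0.04 ± 0.03 (adjusted p = 0.317 in limma) with a level of 0.796 ± 0.0639 (SD, n = 3) at 240 min.

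Of the genes of spindle assembly and cytokinesis 14 of 21 fell, with a median of -0.27, led by Kif20b at -0.97 ± 0.06 and Cep55 at -0.58 ± 0.10, and Cit had -0.02 ± 0.08. Of the genes of sister chromatid cohesion and separation 12 of 14 fell, with a median of -0.38, led by Sgo1 and Pds5b, the latter at -0.83 ± 0.13 from 3 to 37 reads, and Stag1 was at 0.06 ± 0.09. In the passenger complex itself 3 of 3 tested genes fell, with a median of -0.42. Read against the 56.9% of all genes that fell in total RNA, these counts are a description of the lists. In the nucleus (61.9% of all genes) 26 of 30 kinetochore genes fell, 9 of 11 checkpoint genes, 14 of 17 genes of the anaphase-promoting complex, 14 of 16 of mitotic entry and exit, 17 of 20 of the spindle and cytokinesis, 11 of 15 of cohesion, 7 of 10 chromatin partners and 3 of 6 of the inhibitor of apoptosis family. In the cytosol (67.1%) the counts in the same order were 24 of 29, 10 of 11, 14 of 17, 17 of 17, 16 of 21, 12 of 14, 7 of 10 and 4 of 5. In the membrane fraction (62.2%) they were 21 of 29, 8 of 11, 16 of 17, 14 of 16, 17 of 20, 13 of 13, 8 of 9 and 4 of 6. After centring in total RNA, where 3961 of 12762 genes fell and 3672 rose, 12 of 29 kinetochore genes fell and 8 rose, 4 of 11 checkpoint genes fell and 3 rose, 5 of 17 genes of the anaphase-promoting complex fell and 4 rose, and 10 of 16 genes of mitotic entry and exit fell and 3 rose. Of 21 spindle and cytokinesis genes 9 then fell and 5 rose, of 14 cohesion genes 8 and 2, and of 10 chromatin partners 3 and 4. Genes listed above with slopes near 0, such as Cenpm, Ccnb2, Cit and Rcc2, were among those that rose relative to the median gene.

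**Figure D5:**
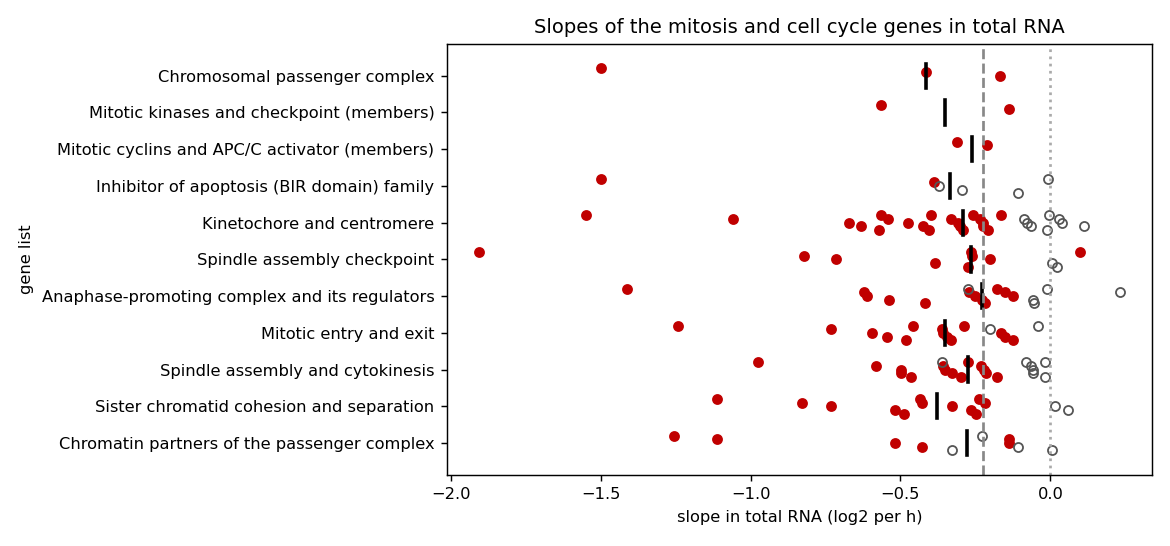
Slope in total RNA (log2 per h) of each tested gene in the lists, with filled red points for genes past the threshold, open points for the rest, black bars for list medians, a dashed line at the median of all genes (-0.22) and a dotted line at 0. Birc5 at -1.50 stands apart from Incenp and Cdca8, and single genes such as Mad2l1bp, Mis12 and Fbxo5 reach similar slopes in other lists.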

How the data were processed

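Polyadenylated RNA from 48 libraries (TruSeq Stranded mRNA, HiSeq 4000) was analysed. The submitters' processing notes name STAR 2.7.6, RSEM 1.3.3 and mm10. The authors scaled libraries on genes with long known half-lives, and what they deposited is a ratio of each gene's level to that at 0 min. Titles gave the groups and replicate numbers. They put the last time at 240 min, which was used here, whereas a protocol field says 180 min. Of 23862 identifiers 23786 matched a symbol.

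The members and gene lists were chosen with earlier results of these data known, so every p-value given for Birc5 is a description. Log2 of the ratio, with no pseudocount, entered linear models in limma 3.58.1 (R 4.3.3). They were moderated with a variance trend on each gene's mean log2 ratio, which is not its read depth. Two-sided p-values were adjusted after Benjamini and Hochberg with a threshold of 0.05. A gene was tested if each of a fraction's 12 libraries listed it, or each of 24 for differences between fractions. An exponential decay was fitted by least squares in Python 3.11.15 with numpy 2.4.6. Whole reads were recovered from quotients of the ratios between libraries of a fraction, with multiples up to 60000 tried. The deposited ratio has a different divisor for each gene, and no count-based test was run. Log2 ratios that rest on few reads therefore entered the models in the same way as the others. Replicates are independently passaged cultures, and the p-values of steps between times measure their spread. Those of slopes and slope differences also hold the departure of the levels from a straight line. Named genes were the members, the 2 lowest and the 1 highest slope of each list in total RNA, and the 5 nearest profiles. Positions and transcripts came from GENCODE M21 (GRCm38), a later release than the study's, taking the principal transcript with the longest 3′ UTR. Protein sequences were not used here. The scripts were tested on simulated data. Alternatives covered scaling, pseudocount, listing and read filters, variance trend, replicate block, left-out libraries and times, 180 min as the last time, a fixed starting level and a straight line. The 3 alternatives on recovered reads and listing, and that without Aurkb, were chosen after seeing the data.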

Additional observations from a re-analysis of the deposited data

Results flagged for a closer look

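The slope of Ccna2 differed between 2 fractions by a test of the difference itself: it was 0.25 ± 0.05 log2 per h higher in the nucleus than in the cytosol (adjusted p = 0.00281 in limma, 3 replicates at each of 4 times), and at 240 min the 3 nuclear levels, from 0.752 to 0.796, lay above the 3 cytosolic ones, from 0.345 to 0.378. Over the alternatives the difference ranged from 0.19 to 0.34, higher in the nucleus in each. The call was lost without replicate 3 (0.21 ± 0.08, adjusted p = 0.125), with 30, 60 and 120 min only (adjusted p = 0.481) and with scaling to the mitochondrial mRNAs (adjusted p = 0.557 in limma), and 20.6% of all genes differed between nucleus and cytosol.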

How the results depend on the processing

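Of the counts of members and values of Birc5 that answer a comparison, 229 alternatives stayed within 1.5 times the value or 1 SD of the replicates, and 65 did not; of single-gene values, 530 kept direction and side of the threshold, 60 lost a call, 8 gained one and 17 changed sign. Centring on the median gene left 3 (total), 3 (nucleus) and 4 (membrane) members falling, 1 (total), 1 (cytosol) and 2 (membrane) lower at 120 than 60 min, 2 lower at 60 than 30 min (membrane), 2 (nucleus) and 1 (membrane) lower at 240 than 120 min, 3 differing in slope between nucleus and cytosol, and a membrane half-life of Birc5 of 14.1 min. Slopes that changed sign with centring were those of Cdca8 (0.061 total, 0.039 nucleus, 0.062 cytosol), Bub1 (0.092, 0.10, 0.22 and, in membranes, 0.16) and Ccna2 (0.017 total, 0.20 nucleus). Scaling to mitochondrial mRNAs gave 1 (nucleus) and 4 (cytosol) falling, beside 21.0% and 27.3% of all genes. Lower at 60 min were 7 (cytosol) and 7 (membrane), beside 74.8% and 40.7%, and at 120 min 0 and 7, beside 0.326% and 64.3%. At 240 min 0 (nucleus), 4 (cytosol) and 5 (membrane) were lower, beside 1.50%, 21.5% and 41.2%. Between nucleus and cytosol 0 members differed in slope, where 7 of 11232 genes were lower and 1 higher. Slopes with this scaling were 0.080 for nuclear Ccna2 and 0.10 for cytosolic Bub1. Birc5 had 0.45 in the nucleus at 240 minus 120 min, and -0.18 for its slope in membranes minus cytosol. A pseudocount of 0.1 gave 0 lower at 120 min (nucleus, 12.5% of all genes) and 1 at 60 min (cytosol, 6.84%). It also gave -2.33, -2.56 and -2.03 for Birc5 minus its partners in total, nucleus and cytosol. Slope differences of Birc5 with it were 0.14 (nucleus) and -0.052 (membrane) against cytosol. A variance trend on reads gave 3 lower at 120 min (nucleus), 2 at 60 min (cytosol), 5 at 240 min (membrane) and 2 differing in slope between nucleus and cytosol, where a mean of 10 reads, 180 min as the last time and 30 to 120 min only also gave 2. The last of these gave 2 between membrane and cytosol, with Birc5 at -0.99. Without the nuclear 30 min library of replicate 1, 2 members were lower at 60 min and 2 at 120 min, beside 3413 and 3015 of all genes tested. Birc5 half-lives with the start fixed at 1 were 22.9 (total), 16.3 (nucleus) and 28.1 min (membrane), and from a straight line 40.1, 36.2, 42.3 and, in the cytosol, 39.2 min. The causes of these changes were not tested. The ranges that follow are those with 1 replicate left out and, where the nucleus enters, also without its 30 min library of replicate 1. Members falling were 6 to 7 (total), 7 to 7 (nucleus), 7 to 8 (cytosol) and 5 to 7 (membrane). Lower at 60 min were 0 to 0, 0 to 2, 0 to 0 and 0 to 0, at 120 min 0 to 1, 0 to 2, 0 to 2 and 0 to 3, and at 240 min 2 to 5, 0 to 4, 6 to 7 and 1 to 2. Differing in slope were 0 to 1 (nucleus) and 0 to 0 (membrane). Birc5 half-lives ranged from 10.8 to 12.7, 9.3 to 11.0, 18.2 to 26.6 and 11.4 to 13.1 min, and Birc5 minus its partners from -3.46 to -3.24, -4.39 to -3.87, -2.74 to -2.58 and -2.42 to -1.50. The Birc5 slope difference between nucleus and cytosol ranged from -0.28 to 0.056, the latter without replicate 2. Over all genes the number with a falling slope in total RNA ranged from 3961 to 9237 and the number lower at 60 than 30 min from 0 to 1272, against 7262 and 296. By the study's protocol the fractions of a harvest come from the same cells. Whether replicate numbers pair the samples is not given in the sources. The main tests treated libraries as unpaired, whereas the RPM ratios between fractions were taken within a replicate number. Same-numbered libraries deviated together with median correlations between -0.01 and 0.05 and with 4 pairs over 0.1. Between membrane and cytosol at 1 time, same-numbered pairs had correlations of 0.03 to 0.17, against -0.11 to 0.04 for other pairs. Correlations this weak cannot decide whether the samples are paired. With the number as a replicate block 7 members fell in each fraction, and no count of members moved by over 1.5 times. Depth limited Birc5 after 60 min, Aurkb and Ccnb1, at 1 to 17 reads per library.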
